A study of Homo sapiens with 4 samples.

Results

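Calcium cycling of the sarcoplasmic reticulum is described here by 10 genes, chosen by name from the rows of a gene count table: RYR2, TRDN, CASQ2, HRC and JPH2 on the release side, ATP2A2, PLN and SLN on the uptake side, SLC8A1 for extrusion and CALR as the general calcium buffer of the endoplasmic reticulum. All 10 were found among 60234 Ensembl genes; they were listed by name and function, with earlier results of these data known. The RNA came from NKX2.5:GFP hESCs, a human embryonic stem cell line (genotype eGFP/w) in which GFP is driven from one copy of the cardiac transcription factor gene NKX2-5 and the other copy is wild type. This genotype was shared by all 4 libraries. Cells were differentiated towards the cardiac lineage as spin embryoid bodies and received either 1 µM retinoic acid (RA) or the solvent DMSO (control, CTR) from day 4 to day 7. At day 31 per the series' design text, or slightly earlier as the study's methods give it, cells were sorted by FACS into GFP-positive and GFP-negative cells, giving RA GFP-positive, RA GFP-negative, CTR GFP-positive and CTR GFP-negative libraries. Each condition had 1 library of 1 line, so no difference between 2 libraries has a replicate check, and both fractions of a treatment came from the same cultures.

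In a beating heart muscle cell, calcium entering through the surface membrane opens ryanodine receptors in the sarcoplasmic reticulum, and the calcium they release drives contraction. The SERCA pump then returns calcium to the store, held back by the small membrane proteins phospholamban and sarcolipin, while the sodium-calcium exchanger removes the rest from the cell. In the human heart sarcolipin is known mainly from the atria, and phospholamban is more abundant in the ventricles.

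The libraries held 28125727 reads for RA GFP-positive, 26222787 for RA GFP-negative, 28643091 for CTR GFP-positive and 4371101 for CTR GFP-negative cells. A level is given as CPM, read counts scaled to library size, with TMM scaling factors, and 3 reads corresponded to between 0.105 and 0.639 CPM. The GFP gate was matched by the cardiomyocyte markers: the summed level of 15 such genes was 26326 CPM in RA and 27698 CPM in CTR GFP-positive cells, against 719 and 1304 CPM in the GFP-negative cells. The GFP-positive libraries were not free of other signals, and 8 fibroblast markers summed to 15172 CPM with RA and 3967 CPM in control, against 61608 and 32112 CPM in the GFP-negative cells. Most of each sum came from the collagen genes COL1A1, COL1A2 and COL3A1. PDGFRA alone of the 8 was higher in GFP-positive cells, at 295 CPM with RA and 132 CPM in control. Its GFP-negative levels were 139 and 87.3 CPM. The 11 skeletal muscle markers summed to 414 CPM in RA and 392 CPM in CTR GFP-positive cells, against 44.2 and 37.7 CPM in the GFP-negative cells. Most of the GFP-positive sum came from CKM (158 CPM with RA and 338 CPM in control) and ACTA1 (235 and 21.7 CPM), which heart muscle also expresses. Of the myogenic regulators, MYOG reached 11.5 CPM in RA GFP-positive cells, while MYOD1 and MYF5 did not exceed 1.28 and 0.117 CPM in any library.

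The GFP sort separated most of these genes strongly. In control cultures the GFP-positive library exceeded its GFP-negative partner at least 2-fold for 8 of the 10 genes (11.9% of 11806 genes were that much higher), 1 was at least 2-fold lower (13.3% of genes) and CALR was within 2-fold. After RA the counts were the same, 8 and 1 of 10, where 9.97% of 11850 genes were higher and 12.4% lower. The median difference over the 10 genes was 2.90 in control and 3.09 with RA on the log2(CPM + 1) scale, against 0.08 and 0.02 over all genes compared. An edgeR quasi-likelihood model that adds a treatment term and a fraction term, fitted to 22857 genes in the 4 libraries, called the same split between fractions: 8 genes higher in GFP-positive cells (9.27% of genes), SLN lower (11.1% of genes) and CALR not called (adjusted p = 0.243). That model has 1 residual degree of freedom and takes as error what treatment and fraction do not explain additively. In bulk RNA, fewer cells of a type and less RNA per cell cannot be told apart, so that a lower level in GFP-negative cells may be either.

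**Figure D1:**
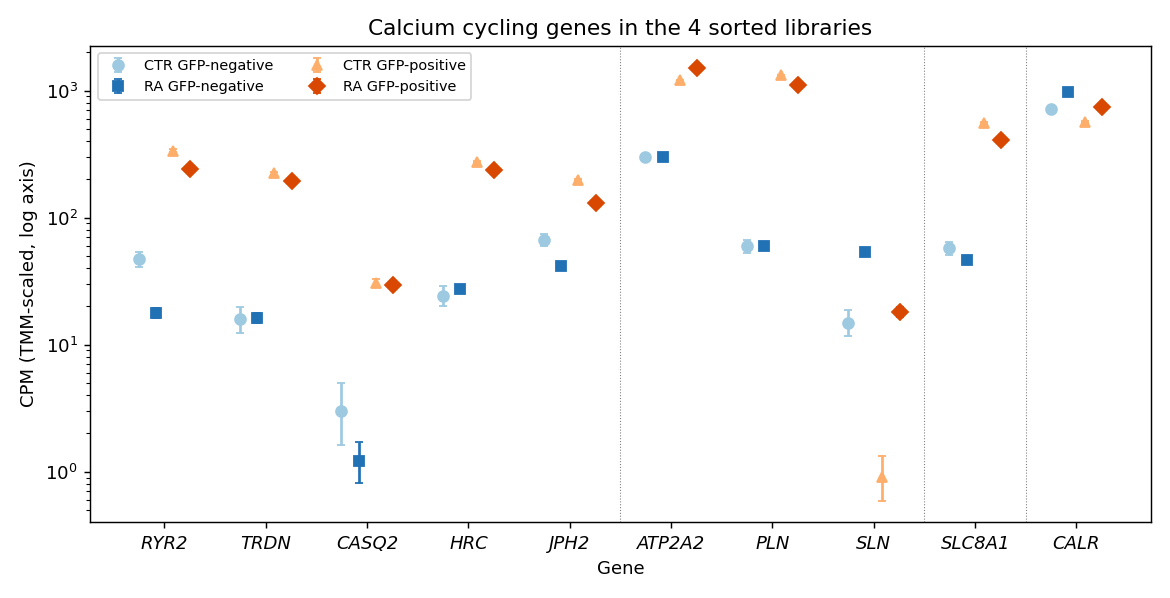
Level of each gene in the 4 libraries, as TMM-scaled CPM on a log axis; bars are exact Poisson 95% intervals and dotted lines separate release, uptake, extrusion and the general buffer. For 8 genes both GFP-positive libraries lie above both GFP-negative ones, whereas SLN lies lowest in CTR GFP-positive cells (0.907 CPM) and highest in RA GFP-negative cells (53.4 CPM).

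RYR2, the ryanodine receptor of heart muscle, lies on chromosome 1 (GRCh37 1:237205484-237997288, plus strand). It was measured at 337 CPM (9654 reads) in CTR and 243 CPM (6506 reads) in RA GFP-positive cells, and at 46.9 CPM (220 reads) in CTR and 17.7 CPM (454 reads) in RA GFP-negative cells. Both RA libraries lay below the control library of their own fraction. The RA to CTR ratio was 0.722 (95% Clopper-Pearson interval 0.7 to 0.745) in GFP-positive and 0.378 (0.321 to 0.446) in GFP-negative cells. RYR2 was called lower with RA in the additive model (log2 fold change -0.90, edgeR adjusted p = 0.0353), as were 0.512% of all genes. Both fractions of a treatment came from the same cultures, so variation between cultures is not in the error of the treatment term, and RA and culture cannot be told apart for this or any other treatment call. The call was lost with DESeq2 (adjusted p = 0.0627) and with all libraries thinned to the smallest one (adjusted p = 0.283). The 15 cardiomyocyte markers had a median RA minus CTR difference of -0.90 on the log2(CPM + 1) scale in GFP-negative cells, with 6 of them at least 2-fold lower (3.18% of all genes), and of -0.28 in GFP-positive cells, with 1 at least 2-fold lower (1.67%). The treatment term called 3 of the 15 lower and 0 higher, MYH7 (log2 fold change -1.65), MYBPC3 (-1.25) and TTN (-1.17), with a median of -0.51. The part of these markers in the RYR2 difference was not tested. The other ryanodine receptors were low: RYR1, the skeletal muscle form, ranged from 5.3 to 10 CPM and RYR3 from 1.44 to 7.4 CPM.

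TRDN encodes triadin, which ties calsequestrin to the ryanodine receptor, and lies on chromosome 6 (GRCh37 6:123537484-123958334, minus strand). Its level was 223 CPM in CTR and 194 CPM in RA GFP-positive cells, and 15.8 and 16.3 CPM in the corresponding GFP-negative cells. The fractions lay far apart and the treatments close together: the GFP-positive level was 14.2-fold (11.3 to 18.1) that of GFP-negative cells in control and 11.9-fold (10.8 to 13.2) with RA. In the GFP-negative cells the RA to CTR ratio of TRDN was 1.03 (0.806 to 1.34), while that of RYR2 was 0.378. Inside a library, where no scaling factor enters, there were 33.6 TRDN reads (25.5 to 44) per 100 RYR2 reads in CTR GFP-negative and 92.1 (80.4 to 105) in RA GFP-negative cells. The same ratio was 66.3 in CTR and 79.8 in RA GFP-positive cells.

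CASQ2, the cardiac calsequestrin that stores calcium inside the reticulum (GRCh37 1:116242642-116311505, minus strand), had the fewest reads of the release genes. It was measured at 30.6 CPM (876 reads) in CTR and 29.3 CPM (784 reads) in RA GFP-positive cells, and at 2.98 CPM (14 reads) and 1.21 CPM (31 reads) in the GFP-negative cells. Among the GFP-positive cells the RA to CTR ratio was 0.959 (0.87 to 1.06), an interval that includes no difference. In the GFP-negative cells CASQ2 was below 10 CPM in both libraries and was left out of the counts of 2-fold differences there. CASQ1, the calsequestrin known from skeletal muscle, followed the same pattern, with 21.4 and 22 CPM in CTR and RA GFP-positive cells and 2.34 and 0.857 CPM in the GFP-negative cells. It was the third nearest of all profiles to CASQ2 (distance 0.21), behind the sarcomere gene TCAP (0.14) and PLPP7 (0.16). Distance here is the Euclidean distance between log2(CPM + 1) profiles centred over the 4 libraries, among 12407 genes with at least 10 CPM in any library, and it is a description of 4 values per gene.

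HRC, the histidine-rich calcium-binding protein of the reticulum lumen (GRCh37 19:49654455-49658653, minus strand), was at 274 CPM in CTR and 238 CPM in RA GFP-positive cells and at 24.3 and 27.3 CPM in the GFP-negative cells. The difference between fractions was 11.3-fold (9.39 to 13.7) in control and 8.72-fold (8.06 to 9.44) with RA. The treatments differed little, with an RA to CTR ratio of 0.867 (0.839 to 0.896) in GFP-positive cells and 1.12 (0.921 to 1.38) in GFP-negative cells.

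JPH2 encodes junctophilin-2, which holds the reticulum close to the surface membrane (GRCh37 20:42735230-42815828, minus strand). Its level was 198 CPM in CTR and 130.2 CPM in RA GFP-positive cells, against 67.1 and 41.7 CPM in the GFP-negative cells. The gene stood out among the release genes by how much remained in the GFP-negative cells, 33.9% (30.1 to 38) of the GFP-positive level in control and 32% (29.9 to 34.3) with RA. For TRDN the corresponding shares were 7.06% and 8.39%. With RA the level was lower in both fractions, by a ratio of 0.658 (0.63 to 0.686) in GFP-positive and 0.622 (0.548 to 0.707) in GFP-negative cells, which missed the threshold in the additive model (log2 fold change -0.63, edgeR adjusted p = 0.112). Of its paralogs, JPH1 was at 74.1 CPM in CTR GFP-positive cells and 40.6 CPM in RA GFP-positive cells, JPH3 at 31.8 and 39.2 CPM, and JPH4 at 2.51 and 2.24 CPM. JPH4 had the opposite distribution between the fractions, with 36.4 CPM in CTR and 17.8 CPM in RA GFP-negative cells, and was called lower in GFP-positive cells (log2 fold change -3.42, edgeR adjusted p = 1.21e-06).

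ATP2A2 encodes SERCA2, the pump that refills the store (GRCh37 12:110718561-110788898, plus strand). It was measured at 1208 CPM (34627 reads) in CTR and 1501 CPM (40155 reads) in RA GFP-positive cells, and at 299 and 300.0 CPM in the GFP-negative cells. ATP2A2 was the only member on the release, uptake and extrusion side besides SLN that was higher with RA in GFP-positive cells, at a ratio of 1.24 (1.22 to 1.26), and this was not called in the additive model (edgeR adjusted p = 0.989). The GFP-negative cells kept 24.7% (23.4 to 26.1) of the GFP-positive level in control and 20% (19.5 to 20.5) with RA. The pump is also the housekeeping SERCA of other cell types, in which another splice form is used. Isoforms were not separated in these counts. ATP2A3 was at 74.6 CPM in CTR and 59 CPM in RA GFP-positive cells and ATP2A1, the pump of fast skeletal muscle, did not exceed 6.18 CPM in any library.

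PLN encodes phospholamban, the inhibitor that releases SERCA2 when it is phosphorylated (GRCh37 6:118869459-118882879, plus strand). Its level was 1315 CPM (37695 reads) in CTR and 1115 CPM (29815 reads) in RA GFP-positive cells and 59.6 CPM (280 reads) and 59.7 CPM (1533 reads) in the GFP-negative cells. PLN was the most strongly separated of the members in control, 22.1-fold (19.6 to 24.9) higher in GFP-positive cells, which ranked 30 of 11806 genes. With RA the difference was 18.7-fold (17.7 to 19.7). The additive model gave a log2 fold change of 4.33 between fractions (edgeR adjusted p = 3.13e-10) and of -0.11 between treatments (edgeR adjusted p = 1). The genes with the nearest profiles were CKMT2, the mitochondrial creatine kinase of striated muscle (distance 0.19), the myosin light chain MYL4 (0.19) and MYOCD, a transcriptional coactivator of heart and smooth muscle (0.21).

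SLN encodes sarcolipin, the other small inhibitor of SERCA (GRCh37 11:107578104-107590419, minus strand), and was the only member called lower in GFP-positive cells and the only one at least 2-fold higher with RA. It was measured at 0.907 CPM (26 reads) in CTR GFP-positive cells, 18 CPM (482 reads) in RA GFP-positive cells, 14.9 CPM (70 reads) in CTR GFP-negative cells and 53.4 CPM (1371 reads) in RA GFP-negative cells. Within each treatment the GFP-negative cells had the higher level, and within each fraction the RA-treated cells had the higher level. The RA to CTR ratio was 19.9 (13.4 to 30.7) in GFP-positive cells, the rank 22 difference of 11186 genes, and 3.58 (2.82 to 4.62) in GFP-negative cells, the rank 200 difference of 11606. The GFP-negative level exceeded the GFP-positive one 16.4-fold (10.3 to 26.9) in control and 2.96-fold (2.67 to 3.3) after RA.

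In the additive model SLN was called higher with RA (log2 fold change 2.99, edgeR adjusted p = 0.000468; 1.8% of genes were) and was lower in GFP-positive cells (log2 fold change -2.60, edgeR adjusted p = 0.000122). The treatment call was lost when the libraries were thinned to the smallest one (adjusted p = 0.0813). Whether the RA difference of SLN differed between the fractions was not tested, since the model with an interaction leaves no residual degree of freedom. The summed markers of several other cell types were also higher with RA. From CTR to RA GFP-positive cells the summed fibroblast markers went from 3967 to 15172 CPM. Of these, 7 of the 7 at or above 10 CPM were at least 2-fold higher (4.14% of all genes). The 6 smooth muscle markers went from 640.4 to 1216 CPM, with 3 of them at least 2-fold higher. The 10 neural and eye markers went from 44.3 to 79.5 CPM. This rise came from STMN2 (1.26 to 42.5 CPM), while PMEL, the other one at or above 10 CPM, went from 26.1 to 23.9 CPM. The 7 endoderm markers went from 12 to 40.3 CPM. There AFP went from 0.279 to 22.6 CPM and APOA1 from 6.53 to 12.8 CPM, while TTR went from 3.28 to 0.411 CPM. The 5 endothelial markers were at 16.9 and 16.3 CPM. From CTR to RA GFP-negative cells the fibroblast sum went from 32112 to 61608 CPM and the smooth muscle sum from 759 to 1417 CPM. Of the 5 smooth muscle markers at or above 10 CPM there, TAGLN alone was at least 2-fold higher (338 to 744 CPM). The endoderm sum went from 84.5 to 674 CPM. Of 6 endoderm markers at or above 10 CPM, 5 were at least 2-fold higher (4.95% of all genes) and TTR was lower (3.18%). AFP went from 2.98 to 465 CPM and TTR from 73 to 11.7 CPM. The neural and eye markers went from 759 to 159 CPM and the endothelial markers from 280.5 to 262 CPM. The part of these cells in the SLN difference was not tested. The nearest profiles to SLN were those of PTGS2, an enzyme of prostaglandin synthesis (distance 0.22), the growth factor gene HGF (0.39) and the pharyngeal and cardiac progenitor factor gene TBX1 (0.45). PTGS2 was at 1.99, 24, 23.6 and 84.9 CPM in CTR GFP-positive, RA GFP-positive, CTR GFP-negative and RA GFP-negative cells.

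**Figure D2:**
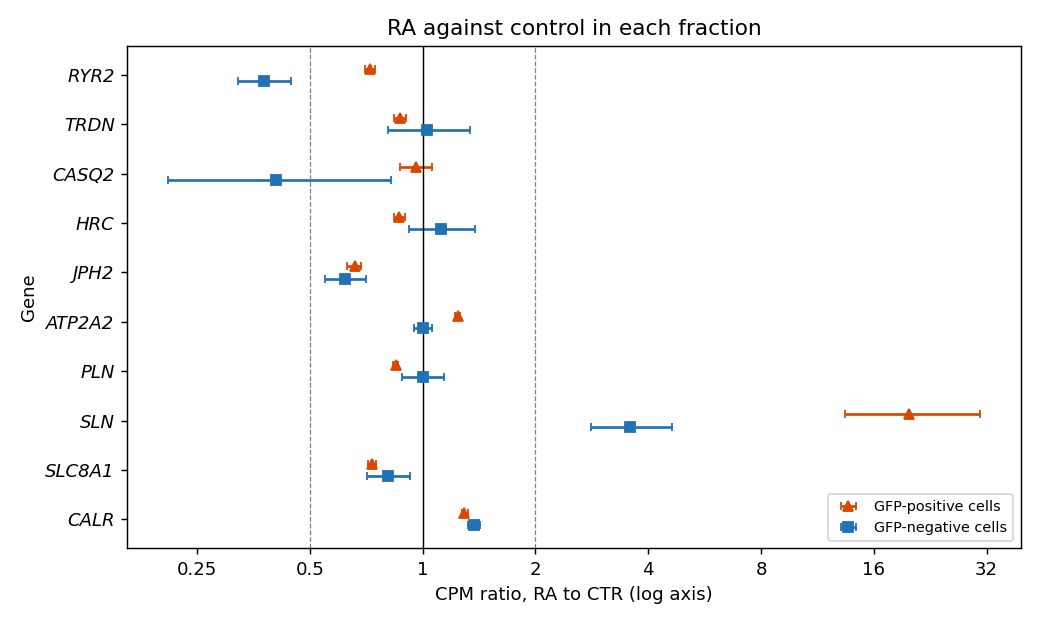
Ratio of the RA to the CTR level (CPM, log axis) in GFP-positive and GFP-negative cells with Clopper-Pearson 95% intervals for counting error; the dashed lines mark 2-fold in either direction. SLN lies at 19.9 and 3.58, RYR2 reaches 0.378 in GFP-negative cells, CASQ2 there rests on 14 and 31 reads, and the other ratios lie between 0.622 and 1.37.

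Over the 10 members, RA against control in GFP-positive cells gave 1 gene at least 2-fold higher, SLN (4.14% of 11186 genes), and 0 at least 2-fold lower (1.67% of genes), with a median difference of -0.20 against 0.02 over all genes compared. In GFP-negative cells 1 of 9 members was at least 2-fold higher, again SLN (4.95% of 11606 genes), and 1 was lower, RYR2 (3.18% of genes), with a median of 0.00 against 0.08. The pairwise comparisons share libraries with each other and are given side by side only.

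SLC8A1 encodes the sodium-calcium exchanger NCX1 of the surface membrane (GRCh37 2:40324410-40838193, minus strand). It was at 557 CPM in CTR and 408 CPM in RA GFP-positive cells and at 57.5 and 46.6 CPM in the GFP-negative cells. The level with RA was lower in both fractions, at a ratio of 0.732 (0.715 to 0.75) and 0.81 (0.709 to 0.928), and the additive model did not call it (log2 fold change -0.37, edgeR adjusted p = 0.644). Of the exon bases of SLC8A1, 9.15% are shared with the antisense gene SLC8A1-AS1, and counting was without strand. The paralogs SLC8A2 and SLC8A3 did not exceed 2.3 and 2.77 CPM in any library.

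CALR encodes calreticulin, a chaperone and calcium buffer found in the endoplasmic reticulum of nearly every cell (GRCh37 19:13049392-13055303, plus strand). Its level was 569 CPM in CTR GFP-positive, 736 CPM in RA GFP-positive, 715 CPM in CTR GFP-negative and 982 CPM in RA GFP-negative cells, a spread far smaller than that of the other 9 members. The GFP-negative level was 126% (121 to 131) of the GFP-positive one in control and 133% (131 to 136) with RA. The RA to CTR ratio was 1.29 (1.27 to 1.32) in GFP-positive and 1.37 (1.32 to 1.42) in GFP-negative cells, not called in the additive model (log2 fold change 0.42, edgeR adjusted p = 0.568). Its nearest profiles, TFG, ADAMTS10 and RPN2, each lay at a distance of 0.04, and RPN2 is a subunit of the oligosaccharyltransferase of the endoplasmic reticulum. Of the CALR exon bases, 9.64% are shared with an unnamed gene of the opposite strand.

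Of 20 other chaperones and calcium binders of the reticulum lumen, 19 were tested in the additive model, and 6 were called lower in GFP-positive cells, where 11.1% of all genes were; DESeq2 called 5 of 20 and edgeR with thinned libraries 7 of 19. Between treatments edgeR called 0 of 19 and DESeq2 0 of 20, with 5 and 1 of them at an unadjusted p under 0.05, all higher with RA, where edgeR put 6.33% of all genes higher and 3.08% lower at that p. The largest differences between fractions were those of the reticulocalbins, low-affinity calcium binders of the secretory pathway: RCN1 (log2 fold change -1.39, edgeR adjusted p = 2.52e-05), RCN3 (-1.28, 7.86e-05) and RCN2 (-1.13, 0.000239). At 2-fold, 3 of 19 list genes were lower in CTR and 2 of 19 in RA GFP-positive cells, near the share over all genes (13.3% and 12.4%). The median over the list was -0.43 in control and -0.60 with RA, where the differences of CALR itself were -0.33 and -0.42.

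Promoter sequence was read for 9 members and 18 of the 20 lumen genes from RefSeq (GRCh38.p14), in the 250 bases before each start site. One motif set CALR apart from the other matched members, the endoplasmic reticulum stress element known from chaperone promoters (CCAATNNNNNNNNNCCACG, either strand). It was found in CALR alone of the 9 members, in 5 of the 18 lumen genes (27.8%) and in 25 of 27305 genes overall (0.0916%). The sites of CALR and the 5 lumen genes are shown because they are the stretch that these genes share. Each is written in the direction of the motif, with CCAAT and CCACG in capitals.
CALR: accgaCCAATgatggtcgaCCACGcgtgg
HSPA5: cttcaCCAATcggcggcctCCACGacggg
HSP90B1 (first site): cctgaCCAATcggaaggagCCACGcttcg
HSP90B1 (second site): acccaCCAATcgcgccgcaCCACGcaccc
PDIA6: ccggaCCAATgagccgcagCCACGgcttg
CANX: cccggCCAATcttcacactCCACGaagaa
CRELD2: atggcCCAATccgagttcgCCACGagagg
The CALR site lies between 207 and 225 bases before the start site, on the strand opposite to the gene (chr19:12938384-12938402, minus strand). The HSPA5 site, in the promoter of the chaperone BiP, lies between 48 and 66 bases before the start (chr9:125241391-125241409, minus strand). Of these 6 genes, 0 were called between fractions by edgeR and 0 by DESeq2, and 1, HSP90B1, had an unadjusted p under 0.05. HSPA5 was at 642 CPM in CTR and 771 CPM in RA GFP-positive cells and at 630.2 and 924 CPM in the GFP-negative cells, and CANX at 480.3, 476, 445 and 438 CPM in the same order. HSP90B1 was at 622 CPM in CTR and 666 CPM in RA GFP-positive cells against 855 and 1079 CPM in the GFP-negative cells (edgeR adjusted p = 0.0621). PDIA6 was at 173 CPM in CTR and 166 CPM in RA GFP-positive cells and at 185 and 268 CPM in the GFP-negative cells (edgeR adjusted p = 0.204).

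Among the muscle members, the consensus of the MEF2 factors was found in the promoters of CASQ2 and ATP2A2, 2 of 9 members, and in 3.44% of all genes. Both matches are shown with the matching bases in capitals, on the strand of the gene.
CASQ2: atgatTTATTTTTAGcctga
ATP2A2: gtcagCTATTAATAATAAaatca
The CASQ2 match lies between 188 and 197 bases before the start (chr1:115768902-115768911, minus strand). The ATP2A2 match holds 2 overlapping copies between 52 and 64 bases before one of its 2 start sites (chr12:110280552-110280564, plus strand). The GATA motif GATAAG was found in PLN and SLC8A1 (6.89% of all genes), and the hexamer AGGTCA, to which retinoic acid receptors bind in pairs, in JPH2 (14.6% of all genes). The pentamer CCAAT alone, which the stress element contains, was found in 5 of 9 members and 37% of all genes. No member window held the CArG box (1.44% of all genes), the motif CATTCCT (4.8%) or the direct repeat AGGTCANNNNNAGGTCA (0.00366%). Each motif was searched on both strands, and a match or its absence describes only the letters of this window. No promoter entry was matched for SLN.

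Most of the calcium genes that were higher in GFP-positive cells kept a larger share outside that gate than the median cardiomyocyte marker. All of them lay within the range of the markers, and the difference between the lists was not tested. The 15 markers had a median GFP-negative level of 4.82% of the GFP-positive level in control and 2.89% with RA, from 1.51% and 0.715% for MYBPC3, a thick filament protein, to 47.8% and 47.4% for the cardiac troponin TNNI3. Of the 8 calcium genes that were higher in GFP-positive cells, PLN lay at 4.53% and 5.36% and the remaining ones above the marker median in both cultures. The order in control ran from PLN through TRDN, HRC (8.85%), CASQ2 (9.75%), SLC8A1 (10.3%) and RYR2 (13.9%) to ATP2A2 and JPH2. The wide interval of CASQ2 (5.31 to 16.5) overlaps those of TRDN, HRC, SLC8A1 and RYR2, and TRDN and SLC8A1 each overlap HRC. With RA the shares of RYR2 (7.27%, 6.6 to 8) and ATP2A2 were lower than in control by more than their counting intervals. For CASQ2 (4.12%), JPH2, PLN, TRDN, HRC and SLC8A1 the intervals of both cultures overlapped or met.

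**Figure D3:**
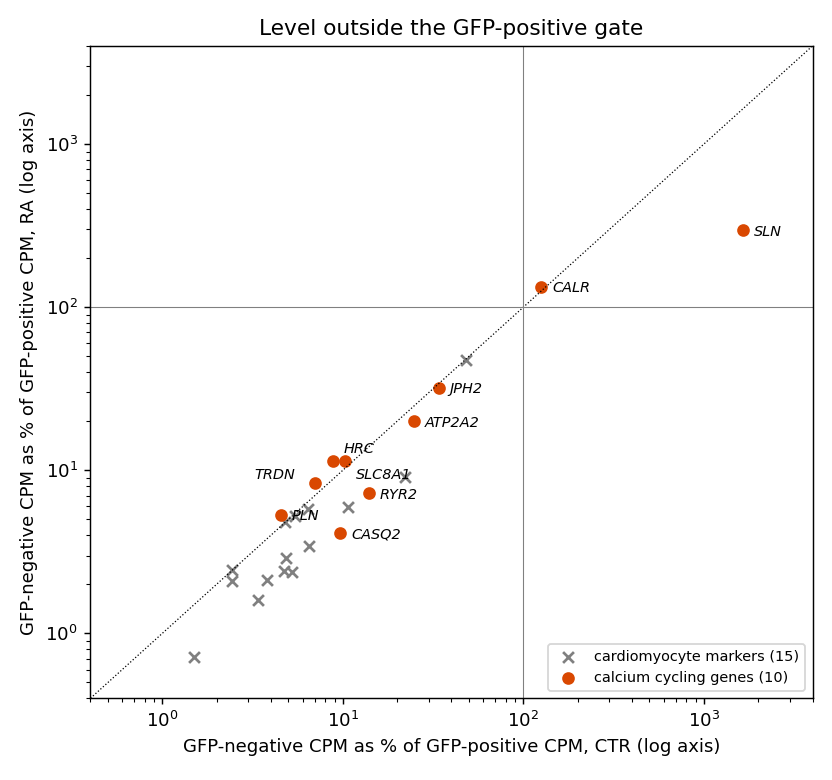
GFP-negative level as a percentage of the GFP-positive level, control on the horizontal and RA on the vertical axis (both log), for the 10 calcium genes and 15 cardiomyocyte markers; the dotted line marks equal shares in both cultures and the solid lines 100%. PLN sits among the markers, ATP2A2 and JPH2 lie at 20% or above in both cultures, CALR lies just above 100%, and SLN lies at 1643% in control and 296% with RA.

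Ratios inside a library set the reads of the pump beside those of its inhibitors without any scaling. They are not corrected for gene length, and in bulk RNA the genes of a ratio need not come from the same cells. Per 100 ATP2A2 reads there were 109 PLN reads (107 to 110.5) in CTR and 74.2 (73.1 to 75.4) in RA GFP-positive cells, against 19.9 in both GFP-negative libraries (17.5 to 22.7 in CTR and 18.8 to 21 in RA). The GFP-positive cells thus held the higher PLN share in both cultures, and the RA library the smaller of these. Per 100 PLN reads there were 0.069 SLN reads (0.0451 to 0.101) in CTR and 1.62 (1.47 to 1.77) in RA GFP-positive cells. In GFP-negative cells the same ratio was 25 (19 to 32.6) in CTR and 89.4 (83.1 to 96.3) with RA. Per 100 ATP2A2 reads, SLC8A1 had 46.1 (45.2 to 47) in CTR and 27.2 (26.6 to 27.8) in RA GFP-positive cells. Per 100 RYR2 reads, JPH2 had 58.8 and 53.5 in CTR and RA GFP-positive cells, and 143 (120.1 to 171) and 236 (211 to 264) in the GFP-negative cells. CASQ2 had 9.07 (8.46 to 9.72) in CTR and 12.1 (11.2 to 13) in RA GFP-positive cells on the same scale. These intervals cover counting error between single libraries only.

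**Figure D4:**
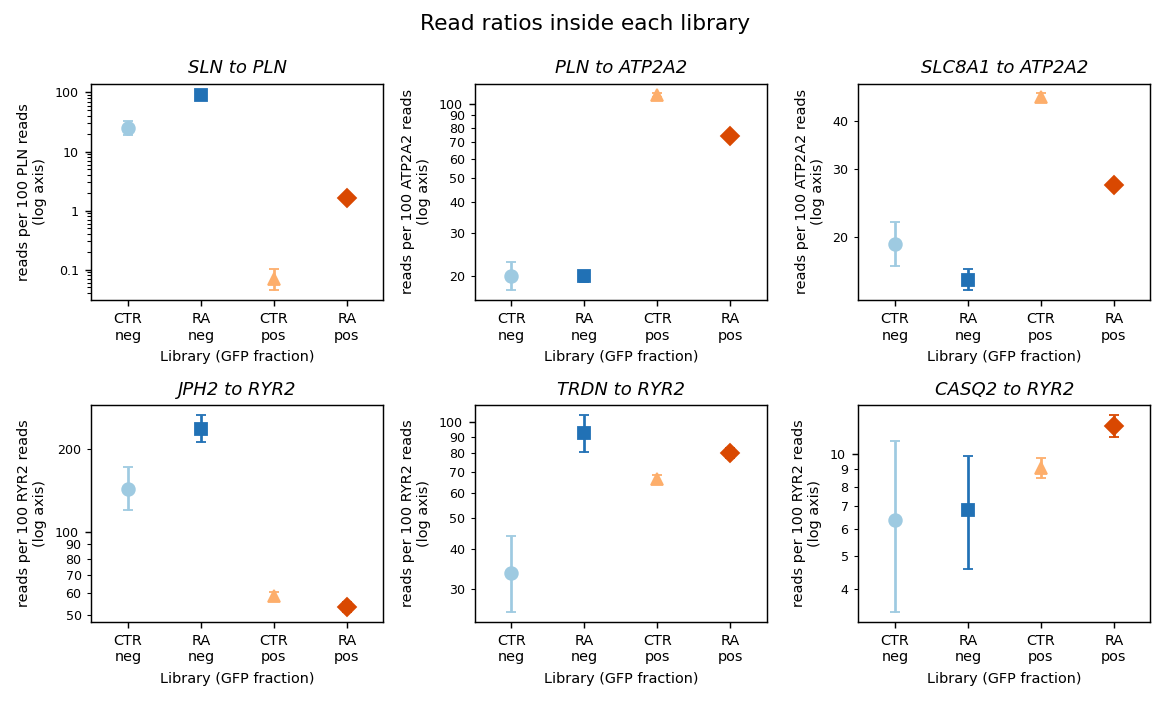
Reads of one gene per 100 reads of another inside each library (log axes), with Clopper-Pearson 95% intervals; neg and pos are the GFP-negative and GFP-positive fractions. SLN per 100 PLN reads runs from 0.069 in CTR GFP-positive to 89.4 in RA GFP-negative cells, and PLN per 100 ATP2A2 reads is highest in CTR GFP-positive cells at 109.

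To compare genes with each other, CPM was divided by the length of merged exons. In CTR GFP-positive cells PLN had the highest level per length at 440.1 CPM per kb, followed by CALR at 203, HRC at 103 and ATP2A2 at 87.9 CPM per kb. The exchanger SLC8A1 (25 CPM per kb), RYR2 (19), JPH2 (18.6), TRDN (16.8) and CASQ2 (11.2) lay below these, and the intervals of RYR2 (18.6 to 19.3) and JPH2 (18.1 to 19.1) overlapped. SLN came last at 1 CPM per kb. In RA GFP-positive cells SLN moved to the fifth position at 19.9 CPM per kb (18.2 to 21.8), beside SLC8A1 at 18.3 CPM per kb, and in RA GFP-negative cells to the second at 59 CPM per kb, behind CALR at 350.5. The order depends on the transcript taken: with the length of the canonical transcript, TRDN rose from 14.6 to 42 CPM per kb in RA GFP-positive cells, and CALR (387) passed PLN (373).

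The wider pathway was read in lists of related genes. Of 20 partners of the release channels, 5 were called higher and 3 lower in GFP-positive cells by the additive model, against 9.27% and 11.1% of all genes. The higher ones included the calcium-calmodulin kinases CAMK2A (log2 fold change 3.40, edgeR adjusted p = 4.99e-09) and CAMK2B (3.36, 7.22e-09), together with CASQ1 (4.01, 2.52e-06), TMEM38A and RYR3. The kinases CAMK2D (0.41, 0.175) and CAMK2G (0.13, 0.769) were not called. The call of RYR3 (edgeR adjusted p = 0.0454) was lost with DESeq2 (0.0946) and with thinned libraries (0.176). The lower ones included the IP3 receptors ITPR3 (log2 fold change -2.01, edgeR adjusted p = 1.03e-05) and ITPR1 (-1.02, 0.00179), channels that release calcium in many other cell types. ITPR3 was at 42 CPM in CTR and 54.3 CPM in RA GFP-negative cells, against 12.8 and 11.3 CPM in the GFP-positive cells.

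**Figure D5:**
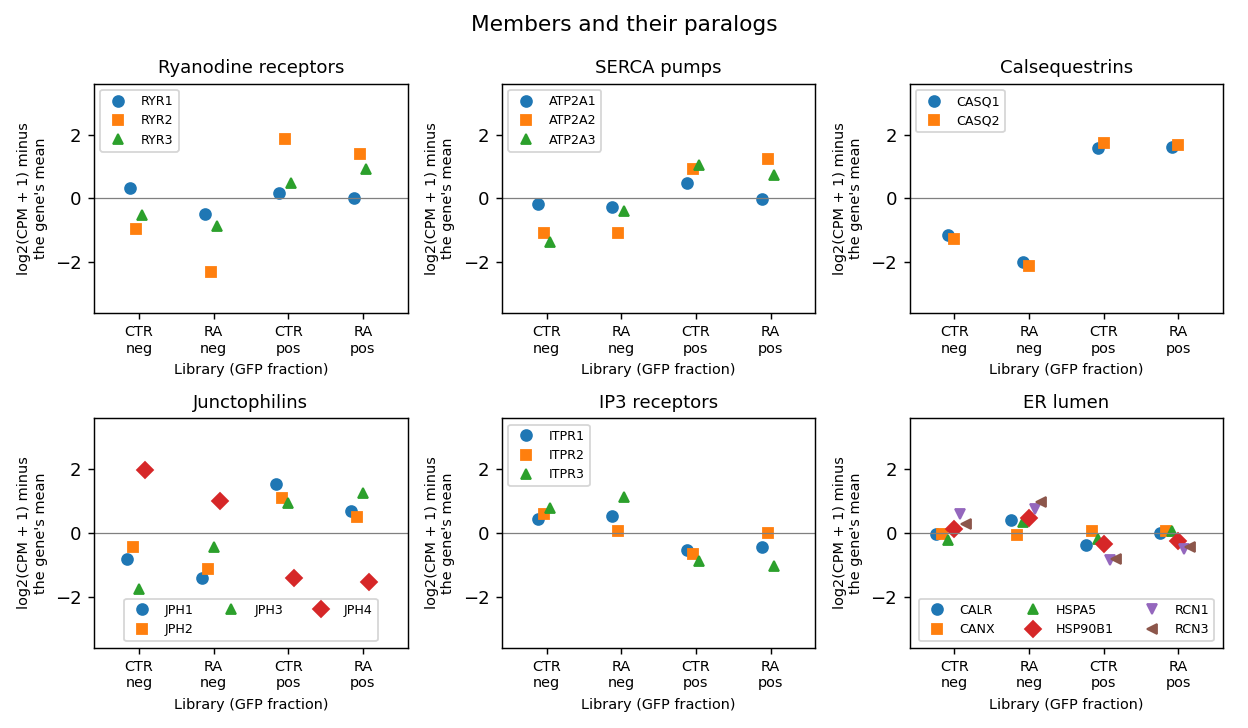
log2(CPM + 1) of members and related genes in each library, minus the mean of that gene over the 4 libraries, so that levels of different genes are not compared; neg and pos are the GFP-negative and GFP-positive fractions. CASQ1 follows CASQ2, JPH4 runs opposite to JPH1, JPH2 and JPH3 between the fractions, ITPR3 is higher in both GFP-negative libraries, and the lumen genes around CALR spread less than the muscle genes.

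Of 6 genes of the junction and T-tubule, JPH1, JPH3 and the kinase gene SPEG were called higher and JPH4 lower in GFP-positive cells (9.27% and 11.1% of all genes). Of 14 genes of calcium entry and exit at the surface membrane, 5 were called higher and 1 lower in GFP-positive cells, against the same 9.27% and 11.1%. With DESeq2 5 were higher and 0 lower (1 lower at an unadjusted p under 0.05), and with thinned libraries 4 of 13 were higher and 1 lower. The L-type channel subunits CACNA1D (log2 fold change 4.17, edgeR adjusted p = 1.33e-08), CACNB2 (2.99, 6.32e-08) and CACNA1C (2.22, 2.33e-07) had the 3 smallest adjusted p-values of that list. CACNB2 was called lower with RA (log2 fold change -1.16, edgeR adjusted p = 0.0119), from 95.7 to 55.6 CPM in GFP-positive and from 16.4 to 5.18 CPM in GFP-negative cells, a call lost with thinned libraries (adjusted p = 0.15). CACNA1D was at 41.7 CPM in CTR and 117 CPM in RA GFP-positive cells, a ratio of 2.8 (2.61 to 2.99), and at 4.26 and 4.33 CPM in the GFP-negative cells, which the additive model did not call between treatments (edgeR adjusted p = 0.119, and 0.0152 without a filter on low counts).

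Phospholamban is controlled by a kinase and a phosphatase, and of 9 genes of that control 5 were called higher in GFP-positive cells (9.27% of all genes), 3 of them with DESeq2 and 4 with thinned libraries. PPP1R1A, which encodes an inhibitor of protein phosphatase 1, was at 129 CPM in CTR and 89.9 CPM in RA GFP-positive cells and at 9.37 and 4.75 CPM in the GFP-negative cells (log2 fold change 4.03, edgeR adjusted p = 6.59e-10). PRKACA, a catalytic subunit of protein kinase A, had a log2 fold change of 1.07 (edgeR adjusted p = 0.000439). PPP1R3A, a targeting subunit of the phosphatase, had 425 reads in CTR GFP-positive and 0 reads in CTR GFP-negative cells, which is at least 18.8-fold higher by the lower Clopper-Pearson limit (23.2-fold with 3 reads taken as the floor of the empty library), and 101 and 6 reads in the RA cells. HSPB6, a small heat shock protein of muscle, was called higher with RA (log2 fold change 1.19, edgeR adjusted p = 0.00495), from 40.3 to 75.2 CPM in GFP-positive and from 21.9 to 61.7 CPM in GFP-negative cells, a call lost with thinned libraries (adjusted p = 0.0583). Of the pump list, ATP2A3 was higher in GFP-positive cells (log2 fold change 1.76, edgeR adjusted p = 0.000103), and the SERCA micropeptide genes MRLN and STRIT1 had at most 5 and 3 reads in any library.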

How the data were processed

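RNA was sequenced from 4 sorted populations, 1 library each. The authors trimmed the reads, ran GSNAP (2014-12-06) against an hg19 genome with custom changes, sorted them with SAMtools 0.1.18, kept uniquely aligned reads and counted them per Ensembl gene with HTSeq-count 0.6.1p1 without strand; the deposited values are these raw counts. The Ensembl release is not given in the sources used here. Unique alignment can undercount genes with near-identical copies. Gene names and coordinates came from GENCODE lifted to GRCh37, the same build (92.2% of 60234 genes named).

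CPM were computed with TMM factors (0.951 to 1.07; edgeR 4.0.16, R 4.3.3). Differences between 2 libraries are of log2(CPM + 1), which understates those of low genes; a 2-fold difference was counted among genes reaching 10 CPM in one library of the pair. Such comparisons have no test. Ratios carry Clopper-Pearson and CPM exact Poisson 95% intervals (scipy 1.17.1), which cover counting error only, as amplified reads are not independent molecules. Depth was about 6 times lower in CTR GFP-negative cells than in the others, where intervals are widest. The additive model was edgeR's quasi-likelihood test with Benjamini-Hochberg adjustment over all 22857 genes (threshold 0.05). It has no replicates, and its p-values test each term against an error taken from departure from additivity. Only its fraction term was tried on simulated libraries, in which genes were changed between fractions alone. Those libraries held no departure from additivity and no difference between cultures, and the treatment term was not tried on them. DESeq2 1.42.0, other scalings, pseudocounts, filters and thinned libraries were alternatives.

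Named were the 10 genes, their paralogs other than CALR3 and up to 3 genes each way per list. The 3 nearest profiles were named for CASQ2, PLN, SLN and CALR only. TMEM38A, RYR3, PPP1CC, CAMK2D, CAMK2G, STIM1, PDIA6, MRLN, STRIT1 and the lumen genes with printed sequences were named after their values were seen. So were the markers MYOD1, MYF5, MYOG, CKM, ACTA1, MYBPC3, MYH7, TTN, TNNI3, COL1A1, COL1A2, COL3A1, PDGFRA, TAGLN, STMN2, PMEL, AFP, APOA1 and TTR. The members and lists were chosen with earlier results of these data known. ORAI1, ARLN, ERLN and PECAM1 of the lists were not analysed here.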

Additional observations from a re-analysis of the deposited data

Results flagged for a closer look

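The RA difference had opposite signs in the fractions, with both intervals excluding 1, for 0 of 9 members and for 8 of 51 genes of the wider lists (15.7%), near the 14.5% of all 10385 genes examined; genes under 10 CPM in both libraries of a comparison were left out. The values are differences of log2(CPM + 1), RA minus CTR, in GFP-positive and then GFP-negative cells. Among genes of release and the junction, ITPR2 was at 0.67 and -0.56, CAMK2D at -0.34 and 0.18 and SPEG at 0.12 and -0.60. Among pumps and entry genes, ATP2A3 was at -0.33 and 0.96, ATP2B4 at 0.43 and -0.32 and STIM1 at -0.21 and 0.19. The phosphatase subunit gene PPP1CC was at -0.13 and 0.34, and the lumen gene PDIA6 at -0.06 and 0.54. No test was made of how the fractions differ for any of them, as each condition has 1 library.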

How the results depend on the processing

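Over 8 alternatives of scaling, pseudocount and depth, 320 differences of the members were recomputed and 0 at least 2-fold changed direction; 13 changes of sign concerned TRDN, ATP2A2 and PLN in GFP-negative cells, RA against control, where the values ran from -0.13 to 0.05. With library size alone the median over the members for RA against control in GFP-positive cells was -0.28. With a pseudocount of 5 CPM the median between fractions was 2.44 in control and 2.69 with RA, and the SLN difference with RA in GFP-positive cells was 1.96, against 3.98 with 0.25 CPM. At 1.5-fold, 2 members were called with RA in GFP-positive cells, 1 higher (8.14% of all genes) and 1 lower (5.35%). In the additive model the treatment term called 1 member with DESeq2 and 0 with thinned libraries; the calls lost were RYR2 in both and SLN in the second, and the number of members called between fractions did not change. Over all genes the treatment term called 528 genes with edgeR, 387 with DESeq2, 869 without a filter on low counts and 104 with thinned libraries, where there are fewer reads. The calls by additive fraction were 4648, 3690, 4915 and 3684. The additive model compares the fractions within each culture; no other paired analysis was possible because the labels give no replicate numbers, and with 1 library per condition none was left out. CASQ2 and SLN are the members most limited by depth, with 14 and 26 reads in their lowest libraries.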
